A study of Mus musculus with 12 samples.

Results

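The PI3K, AKT and FOXO signalling genes are a set of 8 genes: Pik3r1, Pik3ca, Akt1, Akt2, Foxo1, Foxo3, Mtor and Rptor. Open chromatin around them was read from the ATAC-seq peak lists of 12 libraries of mouse cells. Peaks that overlapped by at least 1 bp in any of the lists were merged into regions on chromosomes 1 to 19 and X, and a region was given to the nearest protein-coding gene within 100 kb. By that rule 179 of 153346 regions belonged to the 8 genes. A region was called in a library when that library's list held a peak in it.

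The cells are named MSCLCs in the labels, which do not spell out the term; the series title speaks of bone mesenchymal stem cells, the fusion protein EWS::FLI1, the Hippo pathway factor YAP1 and reprogramming by IGF-1. The genotype label formed 5 groups: EF_IGF1_xeno (1 library, line S_221), EF_IGF1 (2 libraries, lines S_220 and S_221), Wt_IGF1 (1 library, titled BM), EF (4 libraries, 2 each of lines S_220 and S_221) and Wt (4 libraries, titled WT_1, WT_2, BM and S_203). The labels do not say what EF stands for, at which dose or for how long IGF1 was given, or which host held the xeno cells. Ages, alleles and the promoter behind any transgene are likewise not given in the sources used here. The design text names WT, EFPrx1, ha-EFPrx1 and hr-EFPrx1 cells, and the labels do not tie these names to the genotypes. Replicates 1 and 2 of both EF and Wt were sequenced on flowcell BSF_0654 per the labels, and the remaining 8 libraries on BSF_1013, so every comparison with IGF1 was made within BSF_1013. Each EF line is named in several groups, and nothing says that libraries came from separate animals, so a spread between libraries may be technical. ATAC-seq cuts accessible DNA with a transposase, and a peak marks a place where cuts pile up; in a bulk library, fewer cells with an open site and less openness per cell cannot be told apart.

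Insulin and IGF-1 receptors recruit class I phosphoinositide 3-kinase (PI3K), an enzyme made of a regulatory subunit (Pik3r1 encodes p85 alpha) and a catalytic subunit (Pik3ca encodes p110 alpha). Its lipid product brings the kinases Akt1 and Akt2 to the membrane, where they are switched on. AKT phosphorylates the transcription factors Foxo1 and Foxo3, which then leave the nucleus, and it also relieves inhibition of mTORC1, the growth-promoting complex that holds the kinase Mtor and its scaffold Raptor (Rptor). In bone cells FOXO factors are known for defence against oxidative stress. The data show accessibility of the genes that encode these proteins, not the activity of the pathway.

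RefSeq (GRCm38.p6) lists 13 starts for the 8 genes, and regions covered 11 of them, against 58.9% of the starts of all protein-coding genes. The starts of Pik3ca and Mtor and the first starts of Pik3r1 and Akt2 lay in regions called in all 12 libraries, which makes 4 of 13 starts, against 25.7% of the 21045 starts of all protein-coding genes in the RefSeq promoter table. Both Akt1 starts, in 1 shared region, and the Rptor start were called in every library but Wt replicate 1. The Foxo3 start was called in 10 libraries, without Wt replicates 1 and 3, and the Foxo1 start in 9, without EF replicate 2 and Wt replicates 1 and 3. Alternative starts were covered less widely: the second Akt2 start was called in Wt_IGF1 and Wt replicate 4, and the third in Wt_IGF1, EF replicates 1 and 4 and Wt replicates 3 and 4. The fourth Akt2 start and the second Pik3r1 start were in no region. RefSeq promoters (250 bases before to 50 after a start) are shown for both Pik3r1 starts, of which 1 was called in every library and the other in none, and for the starts of Pik3ca, Akt1, Foxo1 and Mtor, whose calls or motifs the results turn on. Capitals mark the letters of 3 searched motifs on either strand: CCAAT for the CCAAT box, CCGGAAGT for ETS factors (the family of the FLI1 DNA-binding domain) and GTAAACA for forkhead factors such as FOXO.
Pik3r1 first start (chr13:101768168-101768467, minus strand): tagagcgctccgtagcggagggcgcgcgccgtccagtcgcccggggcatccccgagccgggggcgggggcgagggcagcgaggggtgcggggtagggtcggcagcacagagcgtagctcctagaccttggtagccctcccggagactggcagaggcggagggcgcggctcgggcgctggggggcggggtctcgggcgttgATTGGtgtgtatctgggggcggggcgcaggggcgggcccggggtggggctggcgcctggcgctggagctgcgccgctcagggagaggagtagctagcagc
Pik3r1 second start (chr13:101692581-101692880, minus strand): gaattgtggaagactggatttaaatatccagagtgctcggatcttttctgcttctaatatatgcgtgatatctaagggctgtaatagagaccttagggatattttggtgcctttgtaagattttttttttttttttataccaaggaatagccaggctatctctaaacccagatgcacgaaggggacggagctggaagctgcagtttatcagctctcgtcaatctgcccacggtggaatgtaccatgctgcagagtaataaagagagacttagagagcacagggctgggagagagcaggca
Pik3ca start (chr3:32396815-32397114, plus strand): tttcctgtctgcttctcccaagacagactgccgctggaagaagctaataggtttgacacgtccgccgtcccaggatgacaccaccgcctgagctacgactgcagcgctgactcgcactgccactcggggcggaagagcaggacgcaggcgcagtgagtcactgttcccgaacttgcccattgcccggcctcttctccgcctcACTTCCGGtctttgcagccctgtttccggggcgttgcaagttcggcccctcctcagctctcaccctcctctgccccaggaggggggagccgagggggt
Akt1 first start (chr12:112674835-112675134, minus strand): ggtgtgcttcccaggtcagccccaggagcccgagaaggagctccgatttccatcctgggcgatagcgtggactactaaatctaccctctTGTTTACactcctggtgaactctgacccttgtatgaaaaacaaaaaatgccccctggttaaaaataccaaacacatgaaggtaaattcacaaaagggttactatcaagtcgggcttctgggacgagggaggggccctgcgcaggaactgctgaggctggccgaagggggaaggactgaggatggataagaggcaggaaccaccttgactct
Foxo1 start (chr3:52268087-52268386, plus strand): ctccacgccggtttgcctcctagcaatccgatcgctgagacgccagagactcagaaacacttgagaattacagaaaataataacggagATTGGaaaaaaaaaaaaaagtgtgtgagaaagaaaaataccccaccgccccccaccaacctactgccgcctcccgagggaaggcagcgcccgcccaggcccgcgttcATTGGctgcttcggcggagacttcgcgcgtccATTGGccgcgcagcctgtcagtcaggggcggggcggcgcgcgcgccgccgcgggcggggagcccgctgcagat
Mtor start (chr4:148448332-148448631, plus strand): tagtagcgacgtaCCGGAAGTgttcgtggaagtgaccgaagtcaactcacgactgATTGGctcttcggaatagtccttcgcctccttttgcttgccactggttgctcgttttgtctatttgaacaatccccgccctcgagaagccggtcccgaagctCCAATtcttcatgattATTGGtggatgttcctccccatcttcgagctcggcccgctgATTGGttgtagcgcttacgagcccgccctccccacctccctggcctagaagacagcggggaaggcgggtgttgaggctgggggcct

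A CCAAT box stood in 4 of the 13 promoters (38.5% of all 21045), once at the first Pik3r1 start, 3 times at Foxo1 and 4 times at Mtor, and once at the third Akt2 start. The ETS letters stood at Pik3ca, 48 bases before the start, and at Mtor, 237 bases before it, so in 2 of 13 promoters against 5.2% of all. The FOXO letters stood in 1 of 13, 161 bases before the first Akt1 start, against 3.03% of all. A run of 3 GGAA units in a row, the kind of repeat that EWS::FLI1 is known to bind in human cells, was in none of the 13 and in 0.124% of all promoters; its letters share GGAA with the ETS motif. The letters TGANTCA (AP-1) were in 1 of 13 (7.04% of all), GGAATG (TEAD, the partners of YAP1, also sharing GGAA) in 4 (13.5%) and TATAAA in 1 (12.7%). The first Pik3r1 promoter was 75.7% G and C with 34 CG pairs, and the uncovered second one 43.7% with 6; the median promoter had 56.7% and 13. These matches describe letters and not binding.

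The libraries differed widely in how much was listed. The lists held 7748 (Wt replicate 1) to 83718 (Wt_IGF1) peaks. The genome background, the lowest local background that the authors' folds and p-values imply for a list and the measure of depth used here, was 1.04 to 1.80 in the 4 IGF1 libraries and 0.574 to 1.34 in the 4 others of BSF_1013. On BSF_0654 the background was 0.877 and 0.616 in EF replicates 1 and 2 and 1.78 in Wt replicate 2. It was 2.29 in Wt replicate 1, the highest of the 12 libraries although its list was the shortest. Wt replicate 1 called 4.87% of all regions, and the others 16.7 to 51.9%. Of 10 marker genes of blood cells, 9 had regions, 68 in total. Wt replicate 2 called 77.9% of these, against 5.88 to 33.8% in the other 11 libraries. It called 20.6% of the regions at 14 mesenchymal marker genes. Wt replicate 1, with its short list, called 10.3% of the blood marker regions and 0.877% of the mesenchymal ones. Of all regions called in Wt replicate 1, 99.4% were called in Wt replicate 2. Within BSF_1013, regions at mesenchymal markers were called at 33.8 to 50.4% with IGF1 and 42.5 to 57.9% without it.

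Within BSF_1013, the number of the 8 genes' regions called with IGF1 overlapped that without it. EF_IGF1_xeno called 41 of the 179 regions, EF_IGF1 replicates 1 and 2 called 56 and 61, and Wt_IGF1 called 88. EF replicates 3 and 4 called 46 and 64, and Wt replicates 3 and 4 called 63 and 77. The groups overlapped, with 61.5 ± 19.6 regions with IGF1 against 62.5 ± 12.7 without (mean ± SD, n = 4 libraries each), sides that differ in genotype: 3 EF and 1 Wt library with IGF1, and 2 of each without. The remaining libraries, all of BSF_0654, called 49 and 19 (EF replicates 1 and 2) and 5 and 93 (Wt replicates 1 and 2). In 11 of 12 libraries the 8 genes' share lay below the share of all regions called, with differences from -7.17 to -0.151 points. In Wt replicate 2 it lay 13.6 points above it, and 40 of the 179 regions (22.3%) were called in that library alone, against 14.6% of all regions.

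**Figure D1:**
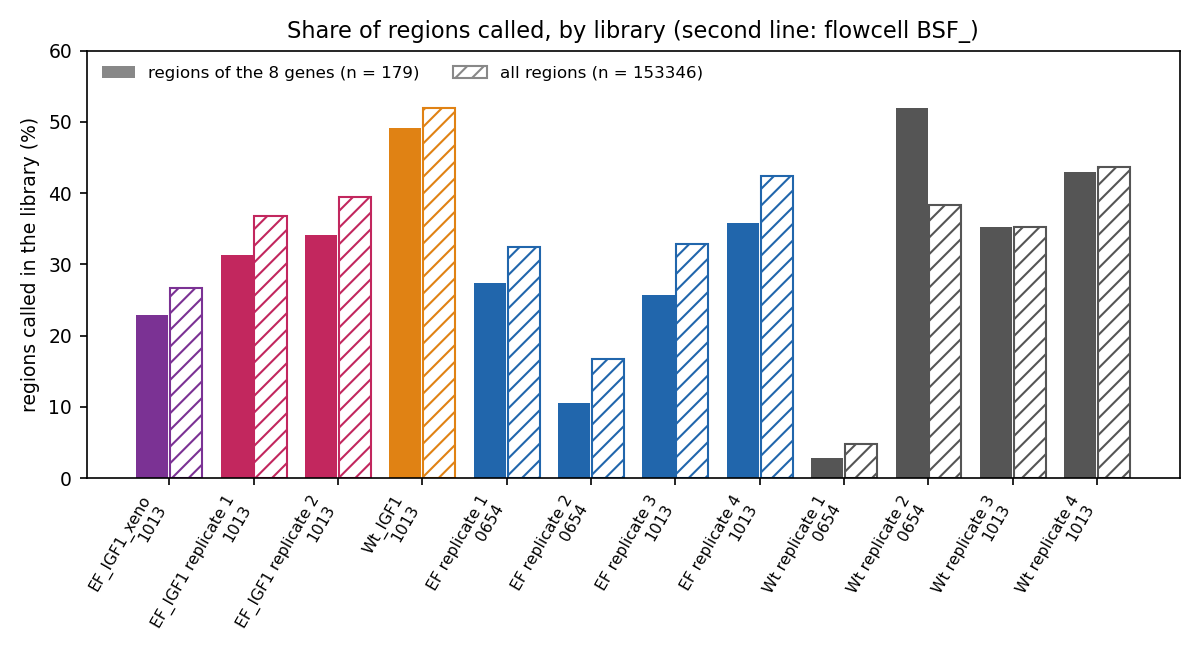
Share of regions called in each of the 12 libraries, in percent, for the 179 regions of the 8 genes and for all 153346 regions. The libraries with IGF1 lie between 22.9 and 49.2% for the 8 genes, within reach of the 25.7 to 43.0% of the 4 libraries of the same flowcell without it, and Wt replicate 2 is the library where the 8 genes lie above all regions.

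Of the 179 regions, 10 covered a start, 112 lay elsewhere inside a gene, 24 upstream and 33 downstream; the tables used hold no exons, so exon and intron are not separated. Rptor had the most regions (52), then Foxo3 (36), Pik3r1 (34) and Foxo1 (23), and Mtor, Pik3ca, Akt2 and Akt1 had 12, 11, 6 and 5. Rptor is also the longest gene, 297 kb, and per 100 kb of gene its regions inside the gene, starts included, numbered 15.8, against 20.6 in Pik3r1, 9.78 in Foxo1 and 19.0 in both Foxo3 and Akt1. Many regions were rare: 72 (40.2%) were called in 1 library (36.3% of all regions) and 5 (2.79%) in all 12 (3.77% of all).

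**Figure D2:**
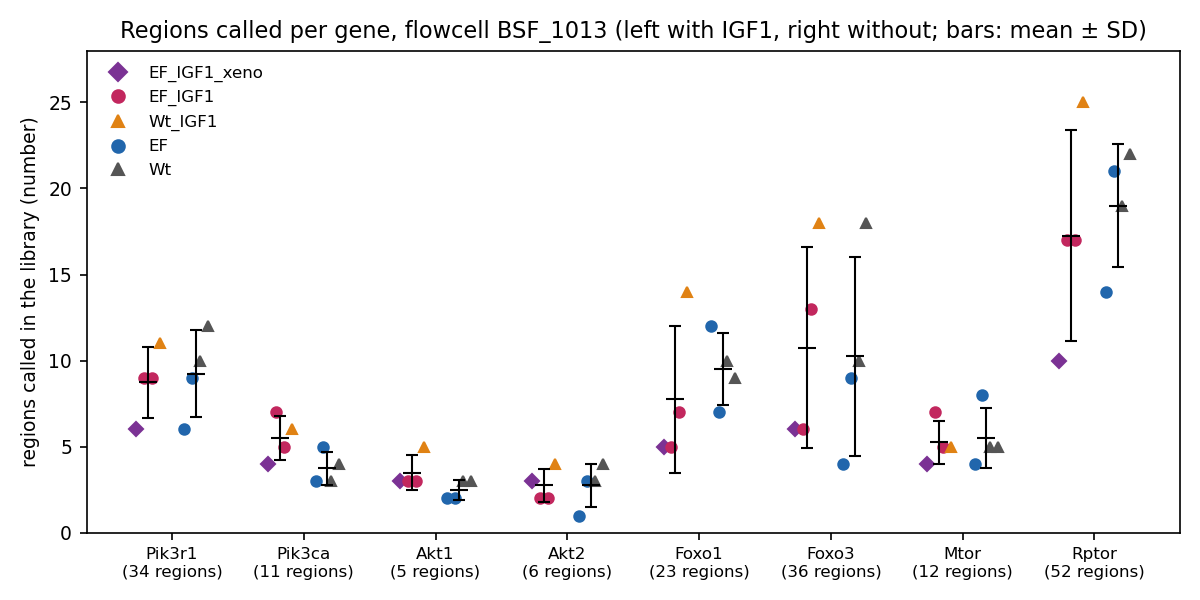
Number of regions called per gene in each of the 8 libraries of BSF_1013 (points), with IGF1 on the left of each pair and without it on the right; bars show mean ± SD of 4 libraries. The counts of libraries with and without IGF1 overlap for each of the 8 genes.

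The comparison of libraries with and without IGF1 asks what the growth factor label goes with at these genes. A region counts as gained when it was called in at least 3 of the 4 IGF1 libraries and in none of the 4 others of BSF_1013, and as lost in the reverse case; this is a counting rule with no test. By it 1 of 179 regions was gained (0.559%, against 1.14% of all regions) and 2 were lost (1.12%, against 0.241% of all). The gained region lay in Pik3r1, and the lost ones in Pik3r1 and Foxo3. Without EF replicate 4 the numbers were 4 gained (3.72% of all regions) and 0 lost (0.0515% of all). Without EF replicate 3 they were 2 gained (1.24% of all) and 1 lost (0.0554% of all). Without Wt replicate 3 there was 1 lost (0.152% of all), and without Wt replicate 4 there were 0 lost (0.0306% of all). Without Wt_IGF1 there were 10 lost (3.38% of all).

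Within EF cells, EF_IGF1 replicates 1 and 2 were set against EF replicates 3 and 4, with a region gained when called in both of the first and neither of the second, and lost in the reverse case. By this rule 4 regions were gained (2.23%, against 2.7% of all regions): 2 of Pik3r1, 1 of Akt1 and 1 of Rptor. Another 4 were lost (2.23%, against 2.08% of all): 1 of Pik3r1, 1 of Foxo1 and 2 of Rptor. Both shares were near those of all regions, and 2 libraries against 2 allow no p under 0.05. Without EF replicate 4 the counts were 16 gained (11.3% of all regions) and 15 lost (10.5% of all), and without EF replicate 3 there were 12 lost (8.42% of all). Without EF_IGF1 replicates 1 and 2 in turn there were 13 gained (6.82% of all) and 9 gained (6.35% of all). The 61 regions of the 8 genes called in EF_IGF1 replicate 2 (line S_221) were called at 75.4% in EF replicate 4 (line S_221) and at 50.8% in EF replicate 3 (line S_220), beside 79.6 and 54.1% of all regions of that library. Of the 56 called in EF_IGF1 replicate 1 (line S_220), 82.1% were called in EF replicate 4 and 51.8% in EF replicate 3, beside 80.6 and 54.7% of all. The list of EF replicate 4 held 67340 peaks and that of EF replicate 3 held 52823. Within line S_221 alone 15 regions were gained and 18 lost (8.05 and 10.9% of all regions), and within line S_220 alone 27 and 17 (16.7 and 12.8% of all).

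In Wt cells, 1 IGF1 library was set against Wt replicates 3 and 4, so the difference has no replicate check. A total of 19 regions were called in Wt_IGF1 and in neither Wt library (10.6%, against 10.6% of all regions), 5 of them at Foxo3, 4 at Pik3r1, 3 each at Foxo1 and Rptor, and 2 each at Pik3ca and Akt1. Another 4 were called in both Wt libraries and not in Wt_IGF1 (2.23%, against 0.624% of all), 3 at Pik3r1 and 1 at Foxo3. Without Wt replicate 3 the counts were 28 gained (15.9% of all regions) and 17 lost (7.73% of all), and without Wt replicate 4 there were 29 gained (18.5% of all). Wt_IGF1 had the longest list of the 12 libraries.

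The xeno library was set against the 2 EF_IGF1 libraries, again with no replicate check. None of the 179 regions was called in EF_IGF1_xeno and in neither EF_IGF1 library (0.794% of all regions were), and 11 were called in both EF_IGF1 libraries and not in EF_IGF1_xeno (6.15%, against 6.83% of all). These 11 were spread over Rptor (5), Pik3ca (2) and Pik3r1, Foxo1, Foxo3 and Mtor (1 each). No region of the 8 genes was called in EF_IGF1_xeno and both EF_IGF1 libraries and nowhere else (0.696% of all regions were). Of the 41 regions called in EF_IGF1_xeno, 92.7% were called in EF_IGF1 replicate 1 and 90.2% in EF_IGF1 replicate 2, beside 92.6% for all regions in both cases. The xeno list held 43416 peaks, against 59325 and 63506 in the EF_IGF1 lists. Without EF_IGF1 replicate 1 the counts were 4 gained (1.98% of all regions) and 24 lost (14.8% of all), and without EF_IGF1 replicate 2 they were 3 gained (1.97% of all) and 18 lost (12.1% of all).

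At the level of genes, the number of a gene's regions called was compared over the same 8 libraries with an exact two-sided permutation test of 70 label orders, whose smallest possible p is 0.0286, and adjusted by the Benjamini-Hochberg method over 12455 genes with at least 3 regions. The side with IGF1 holds 3 EF libraries and 1 Wt library and the other side 2 of each, and the test takes no account of genotype. Adjusted p was 1.0 for each of the 8 genes. At an unadjusted p under 0.05, 62 of all genes stood out (0.498%), 58 higher with IGF1 and 4 lower, and none of the 8 was among them. No gene passed after adjustment. With a smallest possible p of 0.0286 over 12455 genes, none could be expected to pass, so the adjusted values tell nothing about the 8 genes. Pik3ca had 5.5 ± 1.29 regions called with IGF1 and 3.75 ± 0.957 without (difference 1.75, exact permutation p = 0.143, n = 4 each). Akt1 had 3.5 ± 1.0 with IGF1 and 2.5 ± 0.577 without (difference 1.0, exact permutation p = 0.286, n = 4 each), and the difference was 0.5 without Wt_IGF1. The other differences ran from -1.75 (Foxo1 and Rptor) to 0.5 (Foxo3), all within the spread between libraries. For Foxo1 the difference was -3.83 without Wt_IGF1, -0.92 without EF replicate 3, and -0.83 without EF_IGF1_xeno or EF_IGF1 replicate 1.

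**Figure D3:**
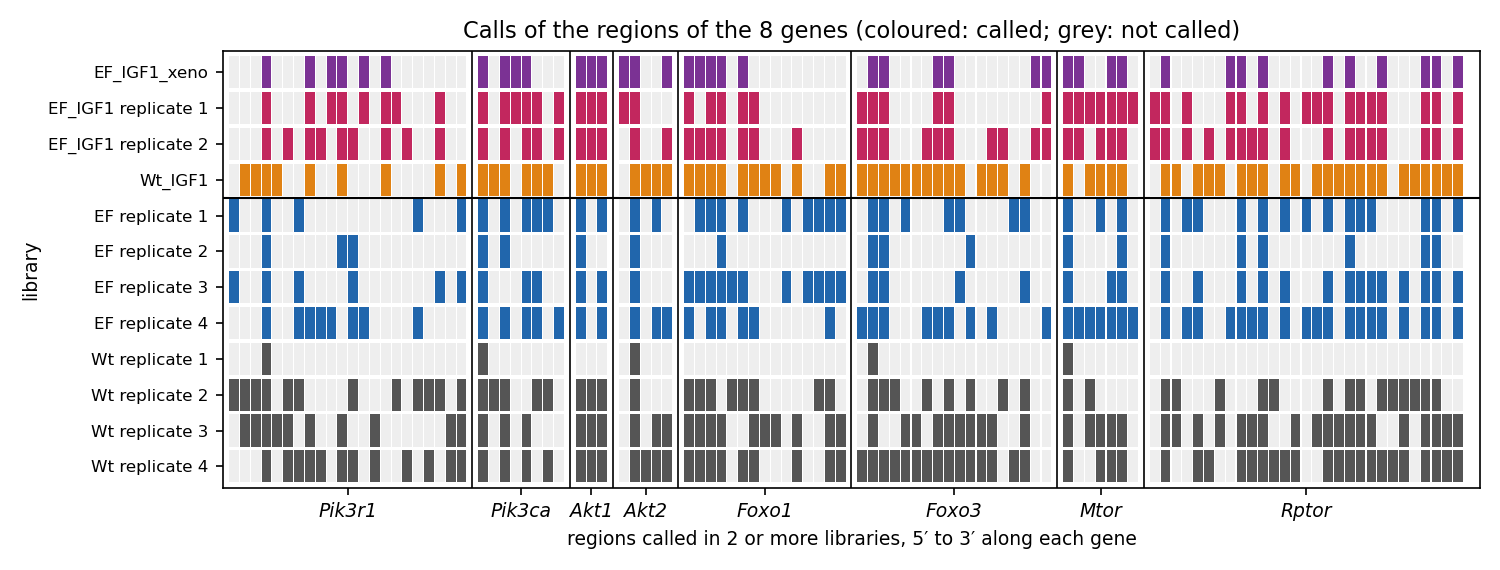
Calls of the 107 regions of the 8 genes that were called in several libraries (columns, by gene and position) in the 12 libraries (rows, by group), a coloured cell meaning that the library's list held a peak there. Regions at starts are coloured in nearly all rows, and the row of Wt replicate 1 is nearly empty with 5 calls.

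Pik3r1, the regulatory subunit, held the 1 region of the 179 that was called in every IGF1 library and in no other. The region at chr13:101690101-101690514 (414 bp, GRCm38) lies inside the gene, 2116 bp past the second start and 77.9 kb from the first. It was called in EF_IGF1_xeno, in both EF_IGF1 libraries and in Wt_IGF1, and in none of the 8 libraries without IGF1, the other flowcell included. Of all regions, 156 of 153346 (0.102%) had that pattern; counted over BSF_1013 alone, 0.132% of all regions did. The reverse pattern, all 4 libraries without IGF1 and none with it, was held by 0 of the 179 regions (0.0163% of all). The authors' fold over local background at its summit was 10.8 in EF_IGF1_xeno, 14.1 and 14.0 in EF_IGF1 replicates 1 and 2, and 5.0 in Wt_IGF1. Folds are the caller's own within each list, are not normalised between libraries, and stand side by side in this account as description. The summit held 30 reads in EF_IGF1_xeno, 35 and 38 in EF_IGF1 replicates 1 and 2, and 21 in Wt_IGF1, over local backgrounds of 1.88, 1.56, 1.78 and 3.4 reads in that order. In Wt_IGF1 the peak ranked above 31.2% of its list, and in the other 3 above 55.8 to 73.5%. The weakest peak listed in the 4 libraries of BSF_1013 without IGF1 had 5 to 7 summit reads. The genome background was higher in 3 of the 4 IGF1 libraries (1.80, 1.56 and 1.47 in EF_IGF1_xeno and EF_IGF1 replicates 1 and 2) than in any of the 4 libraries of that flowcell without IGF1, and 1.04 in Wt_IGF1; its part in the result was not tested. The call rule held for this region under each of the 12 alternatives tried in the comparison with and without IGF1. Those that left out 1 library could not fail for a region called in all 4 libraries of 1 side and none of the other. The Wt_IGF1 peak was not among the top 20000 of its list, so 3 of the 4 IGF1 libraries called the region at that setting.

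Other Pik3r1 regions were called in other patterns. A region inside the gene, at chr13:101735394-101736314, was called in none of the 4 IGF1 libraries and in EF replicates 1, 3 and 4 and Wt replicates 2 and 4. Its folds were 8.99, 6.25 and 6.02 in those EF libraries and 4.06 and 4.42 in those Wt libraries, and in Wt replicate 4 it stood above 2.95% of the list, so near the limit of calling. With the peaks of -log10 q of 5 or more alone, the region no longer met the rule for lost with against without IGF1. It still met that of EF_IGF1 against EF, with -log10 q of 8.81 and 8.31 in EF replicates 3 and 4. Another region, at chr13:101721801-101722669, was called in all 4 IGF1 libraries but also in EF replicate 2 and Wt replicates 3 and 4. It was therefore gained in EF_IGF1 against EF of the same flowcell only. In EF_IGF1_xeno this region had a fold of 3.12 and stood above 0.0207% of the list, so near the limit of calling. The region of the first start, at chr13:101767036-101769053, had folds of 9.95 in EF_IGF1_xeno, 8.15 and 8.14 in EF_IGF1, and 9.05 in Wt_IGF1. The EF libraries had 10.7, 8.89, 11.4 and 7.41 there, and the Wt libraries 4.26, 7.75, 6.94 and 9.54 (replicates 1 to 4). The start was called in all 12 libraries. Within BSF_1013 Pik3r1 as a whole had 8.75 ± 2.06 regions called with IGF1 and 9.25 ± 2.5 without (exact permutation p = 0.829, n = 4 each).

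**Figure D4:**
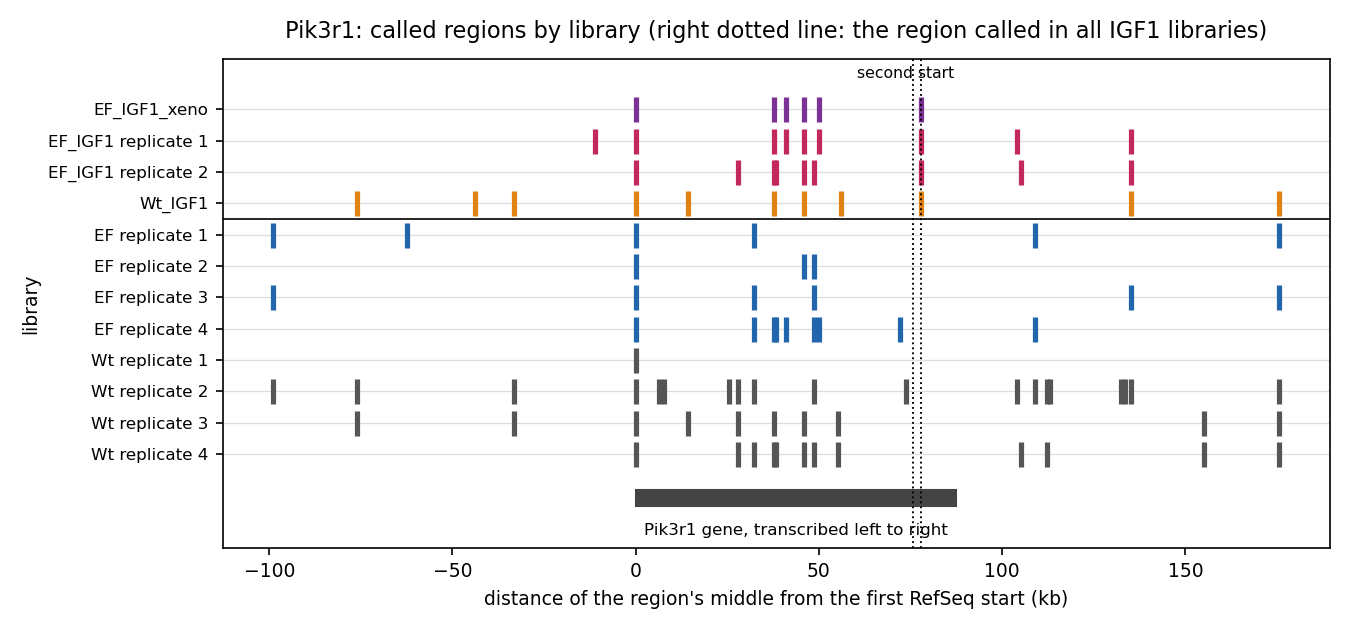
Map of the 34 Pik3r1 regions by distance from the first start in kb along the gene, with a mark in each library (rows) where the region was called. The region 77.9 kb from the first start is marked in the 4 IGF1 libraries and in none of the 8 others, while the first start is marked in all 12.

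Pik3ca, the catalytic subunit, was open at its start in every library and had 9 further regions inside the gene. The start region, at chr3:32396233-32398094, had folds of 15.0 in EF_IGF1_xeno, 12.3 and 11.4 in EF_IGF1, and 13.0 in Wt_IGF1. EF libraries gave 11.9, 10.2, 12.0 and 11.3, and the Wt libraries 4.94, 8.41, 12.1 and 11.5. It stood above 92.3% or more of the list in every library but Wt replicate 1 (52.7%), which makes it 1 of the strongest sites of the set. Inside the gene, 3, 6 and 4 of 9 regions were called in EF_IGF1_xeno and EF_IGF1 replicates 1 and 2, and 5 in Wt_IGF1. The EF libraries called 4, 1, 2 and 4 and the Wt libraries 0, 5, 2 and 3. No Pik3ca region was called with IGF1 and absent without it by the rule of 3 in 4. The region at chr3:32421358-32421999 showed how the comparisons part: it was called in EF_IGF1 and Wt_IGF1, and in EF replicates 1, 3 and 4 and Wt replicate 2, and was not called in EF_IGF1_xeno.

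Akt1, an AKT kinase expressed in most tissues, had 5 regions. The 1 region around both starts, at chr12:112672900-112675672, had folds of 5.53 in EF_IGF1_xeno, 5.59 and 5.33 in EF_IGF1, and 4.44 in Wt_IGF1. It had 4.59, 5.12, 5.06 and 4.81 in the EF libraries and 4.25, 5.05 and 4.53 in Wt replicates 2 to 4. A region inside the gene, at chr12:112667539-112668313, was called in no EF library and not in Wt replicate 1. It was called in EF_IGF1_xeno, both EF_IGF1 libraries, Wt_IGF1 and Wt replicates 2 to 4. Its folds were 7.61 in EF_IGF1_xeno, 8.57 and 9.96 in EF_IGF1, and 3.71 in Wt_IGF1, and 7.94, 6.65 and 5.38 in Wt replicates 2 to 4. It was thus gained in EF_IGF1 against EF and lost in EF against Wt, and was open in Wt cells both with and without IGF1. A pair of other regions inside Akt1 were called in Wt_IGF1 alone.

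Akt2, the AKT kinase best known for insulin-stimulated glucose uptake, had 6 regions, and none was gained or lost in any comparison. The region of its first start, at chr7:27591242-27592695, had folds of 7.23 in EF_IGF1_xeno, 5.54 and 5.6 in EF_IGF1, and 6.39 in Wt_IGF1. In EF they were 8.21, 7.63, 6.9 and 6.62, and in Wt 4.04, 7.34, 5.75 and 6.86. The strongest Akt2 peak by p-value was at the third start, at chr7:27605476-27605937, in Wt replicate 4, with a fold of 11.0. The same region had folds of 9.29 in Wt_IGF1, 5.33 and 5.9 in EF replicates 1 and 4, and 8.58 in Wt replicate 3, and no EF_IGF1 or xeno library called it. It was thus called in 2 of the 4 EF libraries and 2 of the 4 Wt libraries.

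Foxo1, a forkhead factor that AKT inactivates, had 23 regions, and its strongest lay upstream of the gene. The region at chr3:52257766-52258464, 9873 bp before the gene, had folds of 12.8 in EF_IGF1_xeno, 11.4 and 10.6 in EF_IGF1, and 11.5 in Wt_IGF1. Across EF replicates 1 to 4 it had 13.4, 7.81, 8.53 and 10.6, and Wt replicates 3 and 4 had 10.6 and 8.18. The region was called in 10 of 12 libraries, missing in Wt replicates 1 and 2, and the start itself, at chr3:52267811-52269376, in 9. Downstream, IGF1-labelled EF libraries were empty. Of 6 regions there, EF_IGF1_xeno and both EF_IGF1 libraries called 0 and Wt_IGF1 called 2. The EF libraries called 4, 0, 4 and 1 (lines S_220, S_221, S_220 and S_221), and the Wt libraries 0, 4, 2 and 2. This grouping by position was noticed after the values were seen and carries no test. The share of all regions called was 26.7% in EF_IGF1_xeno and 36.8 and 39.5% in EF_IGF1 replicates 1 and 2. In EF replicates 1 to 4 that share was 32.5, 16.7, 32.9 and 42.4%. The region at chr3:52400987-52401835 was the lost one of EF_IGF1 against EF. Its folds were 12.3 in Wt_IGF1, 9.09, 8.58 and 9.41 in EF replicates 1, 3 and 4, and 5.04, 11.0 and 12.6 in Wt replicates 2 to 4, and it was called in no EF_IGF1 or xeno library. In Wt cells it was therefore called with IGF1 as well as without. A pair of Foxo1 regions, at chr3:52329422-52330034 and chr3:52376854-52377519, were called in EF replicates 1 and 3, both of line S_220, and nowhere else (1.12% of the 179 regions, against 2.25% of all).

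**Figure D5:**
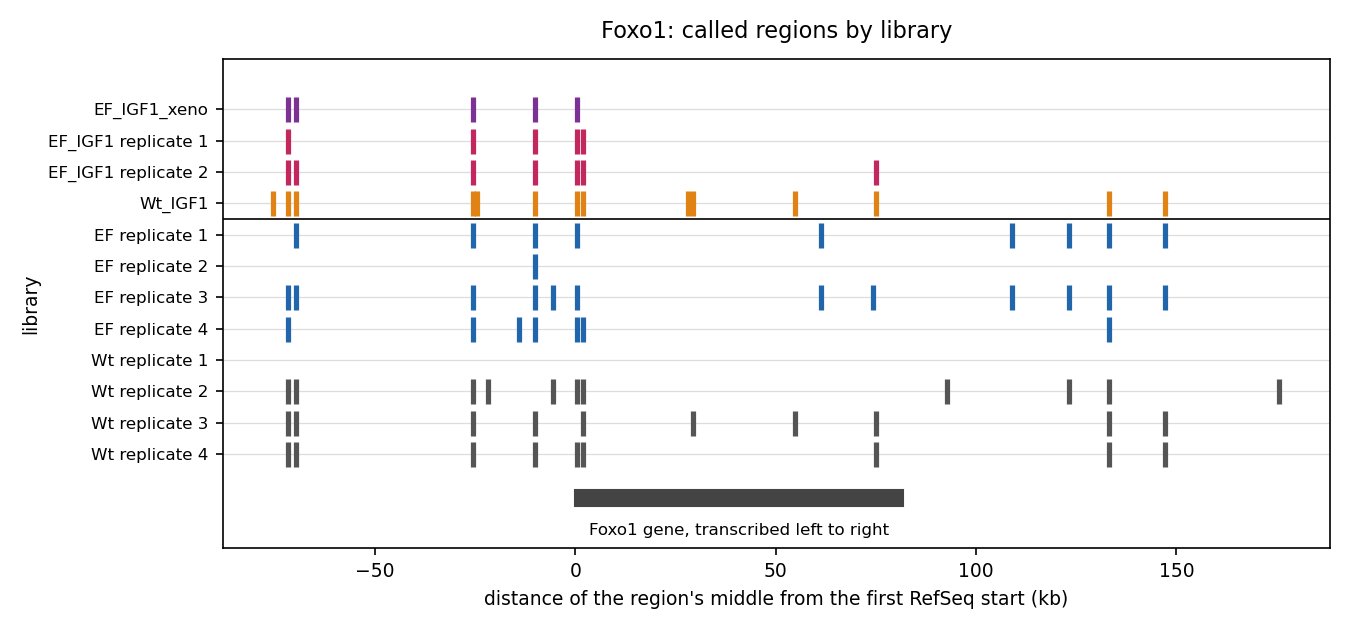
Map of the 23 Foxo1 regions by distance from the start in kb, with a mark in each library (rows) where the region was called. The 6 regions downstream of the gene hold no mark in EF_IGF1_xeno and the 2 EF_IGF1 libraries. They hold 4 marks each in EF replicates 1 and 3 (line S_220), and 0 and 1 in EF replicates 2 and 4 (line S_221).

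Foxo3, the other FOXO factor of the set, had 36 regions, 18 of them called in 1 library. A region just upstream of the gene, at chr10:42277332-42278441, 637 bp outside it, was called in all 12 libraries, more widely than the start at chr10:42276233-42277094 (10 libraries). Upstream, the folds were 8.16 in EF_IGF1_xeno, 7.77 and 7.65 in EF_IGF1, and 7.27 in Wt_IGF1. The EF libraries had 7.81, 7.83, 7.63 and 6.47, and the Wt libraries 5.14, 4.98, 8.04 and 6.84. The region lost with IGF1, at chr10:42219017-42219514, was called in none of the 4 IGF1 libraries and in EF replicates 2 and 4 and Wt replicates 2 to 4. Its folds were 5.56 and 6.67 in those EF libraries and 5.26, 7.08 and 6.15 in those Wt libraries. Inside the gene, Wt_IGF1 called 12 of 17 regions, against 7, 7 and 10 in Wt replicates 2 to 4; EF_IGF1_xeno and EF_IGF1 called 2, 2 and 3, against 3, 1, 1 and 4 in EF. This grouping by position was also made after the values were seen and has no test, and the share of all regions called ran from 16.7% in EF replicate 2 to 51.9% in Wt_IGF1. The gene test of EF against Wt gave 5.75 ± 2.75 regions in EF and 11.2 ± 7.63 in Wt (difference -5.5, exact permutation p = 0.257, n = 4 each). The difference was -8.92 without Wt replicate 1 and -3.25 without Wt replicate 4.

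Mtor, the kinase of mTORC1 and mTORC2, had 12 regions, all inside the gene or at its start, and no region was gained or lost with IGF1. Its start, at chr4:148448170-148449165, had folds of 12.6 in EF_IGF1_xeno, 13.9 and 12.4 in EF_IGF1, and 11.4 in Wt_IGF1. The EF libraries had 12.9, 12.0, 13.2 and 11.3, and the Wt libraries 4.56, 9.85, 12.9 and 12.4. Outside Wt replicate 1 the start stood above 93.0% or more of the list. A second region, inside the gene at chr4:148523372-148524060, was called in 10 libraries, missing in Wt replicates 1 and 2. It had folds of 13.3 in EF_IGF1_xeno, 13.8 and 13.1 in EF_IGF1, and 12.8 in Wt_IGF1. EF replicates 1 to 4 had 13.5, 8.02, 13.9 and 10.3, and Wt replicates 3 and 4 had 11.0 and 14.8. Mtor had 5.25 ± 1.26 regions called with IGF1 and 5.5 ± 1.73 without within BSF_1013 (exact permutation p = 1.0, n = 4 each).

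Rptor, the scaffold that brings substrates to mTORC1, had 52 regions, 46 of them inside the gene away from its start. The start, at chr11:119602725-119603656, had folds of 11.4 in EF_IGF1_xeno, 13.4 and 12.9 in EF_IGF1, and 13.9 in Wt_IGF1. In EF the start had 7.97, 7.08, 9.54 and 10.7, and Wt replicates 2 to 4 had 8.08, 8.65 and 11.5. The strongest Rptor peak by p-value lay deep in the gene, at chr11:119856056-119857193, 253.7 kb from the start. It was called in every library but Wt replicate 1, with folds of 13.8 in EF_IGF1_xeno, 12.5 and 12.5 in EF_IGF1, and 15.8 in Wt_IGF1. The EF libraries had 14.2, 10.2, 9.19 and 13.1, and Wt replicates 2 to 4 had 10.3, 11.2 and 18.8. The region gained in EF_IGF1 against EF, at chr11:119576882-119577219, had folds of 4.69 and 4.45 in the EF_IGF1 libraries, above 2.54 and 1.14% of their lists, and was called nowhere else. One of the lost ones, at chr11:119624851-119625644, had folds of 8.41 in Wt_IGF1, 5.19, 5.43 and 5.11 in EF replicates 1, 3 and 4, and 7.32 and 6.2 in Wt replicates 3 and 4. The other lost one, at chr11:119807295-119808025, had folds of 7.0 in Wt_IGF1, 3.23 and 5.59 in EF replicates 3 and 4, and 6.57, 5.73 and 5.78 in Wt replicates 2 to 4. In EF replicate 3 it stood above 0.0682% of the list, so near the limit of calling. The region met the rule in 6 of 8 alternatives. Rptor had 17.2 ± 6.13 regions called with IGF1 and 19.0 ± 3.56 without (exact permutation p = 0.657, n = 4 each).

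EF cells were set against Wt cells without IGF1 over both flowcells, 4 libraries a side, with a region gained when called in at least 3 EF libraries and no Wt library, and lost in the reverse case. None of the 179 regions was gained (1.19% of all regions were) and 2 were lost (1.12%, against 0.938% of all): the Akt1 region described above and a Pik3r1 region at chr13:101740035-101740431, called in Wt replicates 2 to 4 and in EF_IGF1 replicate 2. Within BSF_1013 the counts were 1 gained and 12 lost (1.91 and 4.57% of all regions), and within BSF_0654 3 gained and 0 lost (4.09 and 0.49%). Without Wt replicate 2, 3 or 4 in turn 0 were lost (0.0567, 0.0822 and 0.0919% of all). There was 1 gained without Wt replicate 2 (1.48% of all) or Wt replicate 4 (2.45% of all), and 3 were lost without EF replicate 4 (1.75% of all). In the gene test Pik3r1 had 6.0 ± 2.45 regions called in EF and 10.5 ± 7.42 in Wt (difference -4.5, exact permutation p = 0.314, n = 4 each). The Wt libraries gave 1, 19, 10 and 12 for Pik3r1, with the extremes in Wt replicates 1 and 2. These libraries called 10.3 and 77.9% of the regions at blood cell markers and 0.877 and 20.6% of those at mesenchymal markers. The part of this in the comparison was not tested. Without Wt replicates 1 and 2 in turn the Pik3r1 difference was -7.67 and -1.67. Rptor likewise had a difference of -4.5, which became -10.58 without Wt replicate 1, 0.08 without Wt replicate 2, -1.92 without EF replicate 2 and -6.92 without EF replicate 4. Adjusted p was 1.0 for all 8 genes, and 39 of all genes (0.313%) had an unadjusted p under 0.05, with 0 after adjustment. The same limit on the smallest p holds here, so the adjusted values tell nothing about the 8 genes.

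A list of 46 further genes of the pathway had 657 regions. It holds 26 PI3K and mTOR genes and 20 FOXO genes and known targets. In EF_IGF1 against EF, 20 of the 657 regions were gained (3.04%, against 2.7% of all) in 16 genes, and 13 were lost (1.98%, against 2.08%) in 9 genes. The gained ones were 10 of the 401 regions of PI3K and mTOR genes (2.49%), with 2 at Deptor, an mTOR inhibitor, and 10 of the 256 of FOXO genes and targets (3.91%), with 3 at Irs2, an adaptor of the insulin and IGF-1 receptors, and 2 at Foxo6. The lost ones were 6 (1.5%) and 7 (2.73%) in those classes, with 2 each at Pik3cb (the p110 beta catalytic subunit), Sgk1, Gadd45a and Insr, the insulin receptor. With against without IGF1, 8 regions were gained (1.22%, against 1.14% of all), 1 each at Pik3cb, Pik3cd, Inpp4b, Foxo6, Bcl2l11, Irs2, Tnfsf10 and Klf15, and 0 were lost (0.241% of all). The gained ones were 3 of the PI3K and mTOR class (0.748%) and 5 of the FOXO class (1.95%). Of these, Bcl2l11 encodes the cell death protein BIM and Tnfsf10 the death ligand TRAIL, both known FOXO targets, and Inpp4b encodes a phosphatase of the PI3K product. No gene of the list had an unadjusted permutation p under 0.05 in either gene test.

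The pattern of each gene over the libraries was described by the share of its regions called minus the share of all regions called. For Pik3r1 the most alike of 4347 genes with at least 10 regions was Pdcd1lg2 (Pearson r = 0.97 over 12 libraries), for Rptor Pxk (0.94), for Foxo1 BC051142 (0.9), for Foxo3 Rcor1 (0.89), for Pik3ca Rab10 (0.88) and for Mtor Fras1 (0.87). Among the 8 genes, Pik3r1 and Rptor were most alike, with r = 0.85. The points share the high values of Wt replicate 2, where Pik3r1 and Rptor called 55.9 and 61.5% of their regions, and r has no test here.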

How the data were processed

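ATAC-seq was measured in 12 libraries. Per the labels' protocols cells were permeabilised with digitonin during transposition. Per the submitters' processing notes the caller was MACS2, whose version they do not state, and the build was GRCm38.p3. The sources used here do not give the aligner, the filtering of reads, whether cut sites were shifted, the settings of the caller or its control. The authors called peaks separately in each library. Their deposited lists hold positions and summits, a fold (the ratio of summit to local background), a −log10 p-value and a −log10 q-value for every peak, and a score of 10 times the −log10 q. These per-peak values are not normalised between libraries, so those of several lists stand side by side as description and carry no test. No read totals were used, since the sources used here give none. Between 23 and 43 peaks a library lay outside chromosomes 1 to 19 and X and were dropped.

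With Python 3.11.15, numpy 2.4.6, pandas 2.3.3 and scipy 1.17.1, peaks overlapping by 1 bp or more were merged into regions and each was given to the nearest RefSeq protein-coding gene (GRCm38.p6) within 100 kb; none of the 179 regions of the 8 genes tied. Summit reads and local background were solved from the authors' fold and p-value of a peak (Poisson upper tail, pseudocount 1), and 100.0% of the peaks gave a whole number of reads within 0.001. Groups come from the genotype label, and replicates were numbered in accession order. Regions were counted by fixed rules with no test. The number of a gene's regions called was tested with an exact two-sided permutation test (70 orders), adjusted by the Benjamini-Hochberg method over 12455 genes with at least 3 regions; merging and test were tested on simulated data. Named regions were taken from those with the highest −log10 p of each gene, those called in all 12 libraries and those gained or lost; other genes are those of a list with a region gained or lost and the most alike ones. The members, lists and rules were chosen with earlier results of these data known. Alternatives were a −log10 q of 5, 250 bp to either side of a summit, an overlap of 100 bp, the top 20000 peaks, a distance of 10 kb, single lines or flowcells, and leaving out each library.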

Additional observations from a re-analysis of the deposited data

Results flagged for a closer look

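A library stood far from the other 3 of its group in 3 results. The counts of the 8 genes and 2 shares were screened in EF and in Wt. By chance the rule flags about 1 in 20 groups of continuous, normally spread values. That rate does not hold for small counts, where 3 equal values and 1 other are always flagged, as in both Akt1 results. EF replicate 2 called 1.0 region of Akt1, against 2 in each other EF library. Wt replicate 1 called 0.0 regions of Akt1, against 3 in each other Wt library, and its list held 7748 peaks. The share of the 8 genes' regions called minus that of all regions was 13.6 points in Wt replicate 2, against -2.07 to -0.151 in the other Wt libraries, and regions at blood cell markers were called at 77.9% in that library. The part of these measures in the results was not tested.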

How the results depend on the processing

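The counts of regions gained and lost are small and depend on how peaks are chosen. With the top 20000 peaks of each list, the 8 genes had 59 regions. EF_IGF1 against EF then gave 2 gained (3.39%, against 2.99% of all regions) and 0 lost (1.63% of all). Wt_IGF1 against Wt gave 4 gained (6.78%, against 4.56% of all) and 1 lost (1.69%, against 2.68%). EF_IGF1_xeno against EF_IGF1 gave 1 gained (1.69%, against 3.41% of all) and 2 lost (3.39%, against 2.6%). At that setting 0 were lost with against without IGF1 and in EF against Wt. With a −log10 q of 5 or more, the 8 genes had 168 regions. Wt_IGF1 against Wt then gave 2 lost (1.19%, against 0.67% of all regions). With against without IGF1 gave 2 gained and 1 lost, and EF against Wt 1 gained and 1 lost. With windows around the summits, EF_IGF1_xeno against EF_IGF1 gave 3 gained (1.66%, against 0.998% of all regions). Pairing by line (the replicate block) gave 15 gained and 18 lost in EF_IGF1 against EF within S_221 and 27 and 17 within S_220. EF_IGF1_xeno against EF_IGF1 gave 4 and 24 within S_221, and Wt_IGF1 against Wt replicate 3, which shares the line name, 29 gained. EF against Wt gave 1 gained and 12 lost within BSF_1013, and 3 and 0 within BSF_0654. With against without IGF1 gave 3 gained with EF_IGF1_xeno left out and calls asked in 2 of 3, and 7 gained and 4 lost in EF libraries alone. Counts in this section that stand without a share of all regions do not set the 8 genes apart from other regions. Leaving out 1 library at a time gave, for gained and lost, 5 to 16 and 4 to 15 in EF_IGF1 against EF, 28 to 29 and 4 to 17 in Wt_IGF1 against Wt, 3 to 4 and 18 to 24 in EF_IGF1_xeno against EF_IGF1, 1 to 4 and 0 to 10 with against without IGF1, and 0 to 1 and 0 to 3 in EF against Wt. The cause was not tested. By construction, leaving out 1 of 2 libraries asks for 1 call in place of 2. Leaving out 1 of 4 still asks for 3 calls, so all that remain must hold the region. On the side that must lack the call, the rule is easier to meet with 1 library fewer. The count of genes past the adjusted threshold was 0 in every alternative run. The few label orders made that outcome near certain in advance, so it is no sign of stability. Among gene differences, with the top 20000 peaks Pik3r1 (1.0) and Pik3ca (-0.5) with against without IGF1 and Foxo1 (1.0) in EF against Wt turned, as did Foxo1 (0.5) at a −log10 q of 5. With 1 library left out, differences with against without IGF1 ran from -1.58 to 0.42 for Pik3r1, -0.83 to 0.58 for Mtor, -4.33 to 0.67 for Rptor, -1.92 to 3.08 for Foxo3, 0.5 to 1.17 for Akt1 and -3.83 to -0.83 for Foxo1, and in EF against Wt from -7.67 to -1.67 for Pik3r1, -8.92 to -3.25 for Foxo3, -2.75 to 1.83 for Foxo1, -0.17 to 1.83 for Mtor and -10.58 to 0.08 for Rptor. Unknown read depth limits every call of absence: a region with no peak may hold reads below the caller's threshold.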
